A study of Mus musculus with 6 samples.

Results

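Serine made from glucose and the folate enzymes that take over its 1-carbon unit were examined in mouse hearts in which Mrps5, which codes for a mitochondrial ribosomal protein, was deleted from cardiomyocytes. The set comprised 10 genes of the 54532 rows in the deposited expression table: 3 of serine synthesis (Phgdh, Psat1, Psph), 5 of mitochondrial folate metabolism (Shmt2, Mthfd1l, Mthfd2, Mthfd2l, Aldh1l2) and 2 of cytosolic folate metabolism (Shmt1, Mthfd1). They were taken by gene name, and the set was drawn up with the difference between the same 6 hearts already known. The differences between the groups are therefore given for these genes as a description: levels, fitted changes and whether the fit over all genes called them, from which nothing is concluded. Each name had 1 row, and all 10 genes were among the 12944 that reached a mean of 0.5 FPKM over the 6 hearts. FPKM are fragments counted per gene, scaled to gene length and to a library size set for each heart. Their Ctrl means ranged from 0.709 to 15.6 FPKM, so none entered only through a high level in the mutant hearts.

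Hearts came from 3 Mrps5 fl/fl mice (Ctrl) and 3 Mrps5 fl/fl; MCM mice (cKO). All 6 mice carried floxed Mrps5 alleles and received intraperitoneal tamoxifen at 45 mg/kg/day for 5 days from 8 weeks of age, and hearts were taken 12 weeks after the injections according to the sample labels. The RNA-seq methods of the study describe the littermates as younger than these labels imply, so the age at collection is uncertain. MCM is MerCreMer, a tamoxifen-activated Cre recombinase driven by the αMHC promoter in cardiomyocytes, so the other cells of the heart kept Mrps5. Controls lacked the transgene, so an effect of the Cre protein and an effect of the deletion cannot be told apart. Mrps5 itself was at 5.20, 6.45 and 6.33 FPKM in Ctrl replicates 1 to 3, and the cKO hearts had 1.12, 1.23 and 1.31 FPKM, which left 20.4% of the Ctrl mean.

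Serine synthesis branches from glycolysis at 3-phosphoglycerate: PHGDH oxidizes it, PSAT1 adds an amino group and PSPH removes the phosphate. Serine hydroxymethyltransferase, SHMT2 in mitochondria and SHMT1 in the cytosol, then splits serine into glycine and a folate-bound 1-carbon unit. In mitochondria this unit is oxidized by MTHFD2 or MTHFD2L and released as formate by MTHFD1L, or burned to carbon dioxide by ALDH1L2 with the formation of NADPH. In the cytosol MTHFD1 takes up formate for the synthesis of purines, thymidylate and methyl groups. Mitochondria also use the formyl unit to prepare the initiator tRNA for their own ribosomes. Adult cardiomyocytes rarely divide, and genes of this pathway are known targets of the stress transcription factor ATF4.

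Libraries held 15989322 to 24875499 reads, and every value was a whole number of reads within a tolerance of 0.01. All 6 libraries expressed the 6 cardiomyocyte markers, whose summed level was 13722 to 17552 FPKM in Ctrl and 8369 to 15007 FPKM in cKO hearts, with 4 of 6 passing the test as lower. Of 4 endothelial markers, 3 passed as lower (summed 103 to 119 FPKM in Ctrl, 67.6 to 80.0 FPKM in cKO). Of 4 fibroblast markers 1 passed as higher and 1 as lower, of 4 macrophage markers 1 as lower, and none of the 4 dividing-cell or 4 hepatocyte markers reached 0.5 FPKM. In whole tissue, fewer cells of a type and less RNA per cell cannot be told apart, and the part of these markers in the results was not tested. The library cKO replicate 2 had 0 reads from 4 Y-linked genes and 10.7 FPKM of Xist, whereas the other 5 had 2697 to 4062 Y-linked reads, although the study states that it used males alone. The summed atrial markers ranged from 128 to 2052 FPKM in Ctrl and from 575 to 1652 FPKM in cKO hearts, highest in Ctrl replicate 1 and cKO replicate 3. Fitted changes without cKO replicate 2 are given for the enzymes and for the other named genes that moved most.

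All 3 genes of serine synthesis and 4 of the 5 mitochondrial genes were far higher in cKO hearts, both cytosolic genes were modestly higher, and Mthfd2l was slightly lower. A limma fit over all genes called 9 of the 10 genes, all higher, against a background of 33.3% of all genes called, 16.3% higher and 17.0% lower. That background split was 2110 genes higher and 2205 lower, and 2649 higher and 1621 lower when libraries were scaled without genes encoded by mitochondrial DNA, under which the same number of the enzymes was called. At least 2-fold higher were 7 of the 10, against 2.13% of all genes, while 1.89% of all genes and none of the 10 were at least 2-fold lower. The groups did not overlap for any of the 10 genes, which also held for 51.2% of all genes. The median log2 fold change was 1.57 over the 10 genes and -0.02 over all genes tested. Because the set was chosen on this contrast, nothing is read from these counts.

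**Figure D1:**
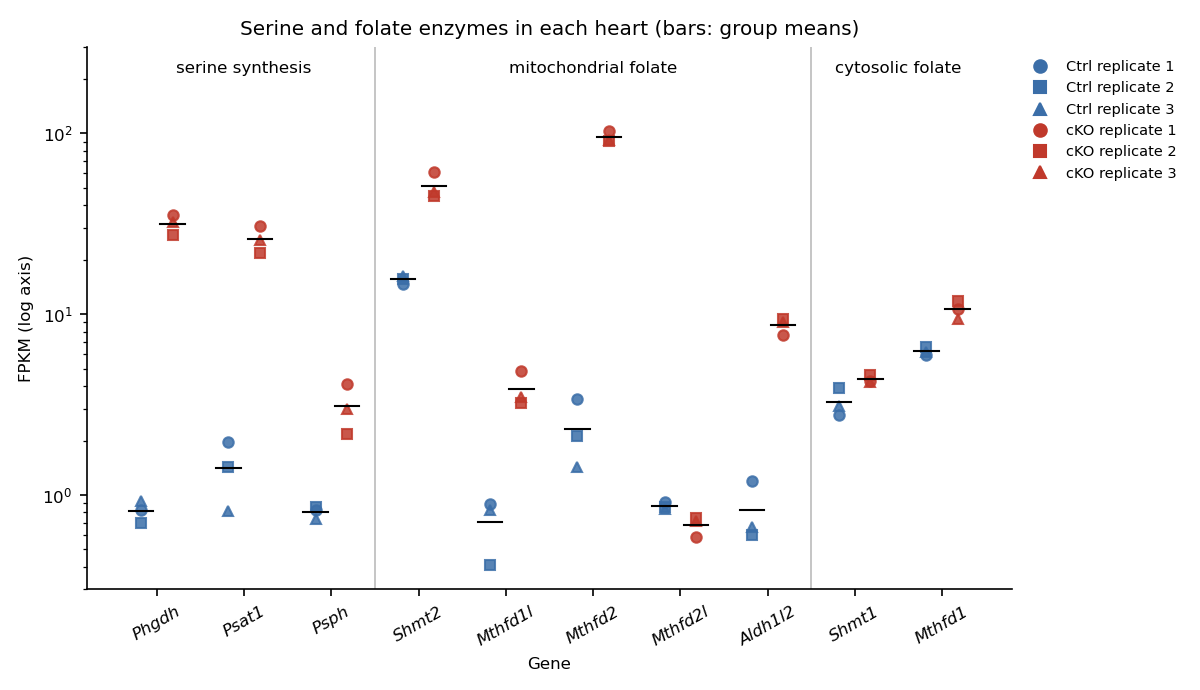
FPKM of the 10 enzymes in each of the 6 hearts on a log axis, with black bars at the group means. Ctrl and cKO points are apart for every gene, widest for Mthfd2 and Phgdh, and only Mthfd2l lies lower in the cKO hearts.

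Phgdh, the first and committed enzyme of serine synthesis (ENSMUSG00000053398, chromosome 3, 98313170 to 98339990, minus strand), was under 1 FPKM in every Ctrl heart. It stood at 0.823, 0.696 and 0.931 FPKM in Ctrl replicates 1 to 3 and at 35.1, 27.5 and 32.3 FPKM in cKO replicates 1 to 3. In reads, this was 131 over the 3 Ctrl libraries and 5096 over the 3 cKO libraries. Even the lowest cKO heart was 29.5-fold above the highest Ctrl heart. The ratio of the group means was 38.8, and the fitted log2 fold change on log2(FPKM + 1) was 4.16 (SE 0.11, 95% interval 3.91 to 4.41). The 1 added before taking logs makes fitted changes smaller than ratios of means for genes this low.

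Psat1, the aminotransferase of the second step (ENSMUSG00000024640, chromosome 19, 15904678 to 15947337, minus strand), varied more among Ctrl hearts. Its values were 1.97, 1.42 and 0.816 FPKM in Ctrl and 30.8, 21.7 and 25.6 FPKM in cKO hearts, an 18.5-fold ratio of means with a fitted log2 fold change of 3.51 (SE 0.20). The coefficient of variation was 41.2% among Ctrl and 17.5% among cKO hearts. Psph, the phosphatase of the last step (ENSMUSG00000029446, chromosome 5, 129765558 to 129787449, minus strand), changed least of the 3. It was at 0.824, 0.855 and 0.735 FPKM in the Ctrl libraries and 4.12, 2.19 and 3.00 FPKM in cKO hearts, a ratio of means of 3.86 and a fitted log2 fold change of 1.16 (SE 0.17). The cKO hearts spread more for Psph than for any other gene of the set, with a coefficient of variation of 31.3%. Psph shares 452 bases with Cct6a on the opposite strand, which averaged 21.9 FPKM in Ctrl and 38.2 FPKM in cKO hearts, and the library kit did not mark strand, so reads in the shared bases cannot be told apart. Without cKO replicate 2 the fitted changes were 4.26 for Phgdh, 3.63 for Psat1 and 1.33 for Psph.

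Shmt2 (ENSMUSG00000025403, chromosome 10, 127517123 to 127522444, minus strand), the mitochondrial enzyme that opens the folate arm, was the most abundant of the 10 genes in Ctrl hearts. It was at 14.7, 15.7 and 16.3 FPKM in the Ctrl libraries and 60.8, 44.9 and 47.2 FPKM in cKO hearts. The ratio of means was 3.27, and the fitted log2 fold change was 1.64 (SE 0.12). Each cKO heart was above the highest Ctrl heart by more than the whole spread of the Ctrl hearts. Its gene shares 32 bases with Ndufa4l2 on the opposite strand, which averaged 14.7 FPKM in Ctrl and 8.94 FPKM in cKO hearts.

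Mthfd2 (ENSMUSG00000005667, chromosome 6, 83305691 to 83325908, minus strand), the dehydrogenase and cyclohydrolase known from embryonic and proliferating cells, ranked first of all 12944 genes by fitted change. Ctrl hearts had 3.40, 2.12 and 1.43 FPKM and cKO hearts 103, 90.3 and 92.3 FPKM, which were 501 and 21540 reads. The fitted log2 fold change was 4.90 (SE 0.20, 95% interval 4.42 to 5.38), and the ratio of means was 41.1. The Ctrl hearts differed from one another more than the cKO hearts did, with coefficients of variation of 43.0% and 7.30%. Ctrl replicate 1, which had the most atrial marker RNA, was the highest Ctrl heart for Mthfd2, Psat1, Mthfd1l, Mthfd2l and Aldh1l2. It was the lowest Ctrl heart for Shmt2, Shmt1 and Mthfd1, and the part of atrial tissue in these orders was not tested.

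Mthfd2l (ENSMUSG00000029376, chromosome 5, 90931117 to 91021368, plus strand) codes for the adult isozyme that catalyses the same steps as MTHFD2, and it was the only gene of the set below its Ctrl level. Ctrl hearts had 0.916, 0.854 and 0.840 FPKM and cKO hearts 0.587, 0.741 and 0.718 FPKM, a mean of 78.4% of Ctrl. The fitted log2 fold change of -0.15 (SE 0.08, 95% interval -0.34 to 0.04) was not called. Counts were 369 reads in Ctrl and 301 in cKO libraries, not scaled to depth. The library size behind the FPKM was below the recovered reads in each Ctrl heart and above them in each cKO heart. Its part in this small change was not tested.

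Mthfd1l (ENSMUSG00000040675, chromosome 10, 3973118 to 4167081, plus strand), the formate-releasing synthetase, was at 0.887, 0.412 and 0.830 FPKM in the Ctrl libraries and 4.85, 3.24 and 3.50 FPKM in cKO hearts. The fitted log2 fold change was 1.51 (SE 0.16) and the ratio of means 5.44. Aldh1l2 (ENSMUSG00000020256, chromosome 10, 83487450 to 83534140, minus strand), which oxidizes formyl-folate and yields NADPH, was at 1.20, 0.602 and 0.667 FPKM in the Ctrl libraries and 7.69, 9.38 and 9.00 FPKM in cKO hearts. Its fitted log2 fold change was 2.42 (SE 0.14) and its ratio of means 10.6. The transcripts for both exits from the mitochondrial pathway were thus higher in all 3 cKO hearts, and neither protein nor flux was measured here. Without cKO replicate 2 the fitted changes were 1.72 for Shmt2, 4.94 for Mthfd2, -0.18 for Mthfd2l, 1.60 for Mthfd1l and 2.37 for Aldh1l2.

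The cytosolic pair moved far less. Mthfd1 (ENSMUSG00000021048, chromosome 12, 76255298 to 76319803, plus strand), the trifunctional enzyme that joins formate to folate, was at 5.95, 6.61 and 6.20 FPKM in the Ctrl libraries and 10.7, 11.8 and 9.43 FPKM in cKO hearts. Its ratio of means was 1.70 and its fitted log2 fold change 0.68 (SE 0.09), or 0.61 without cKO replicate 2. Shmt1 (ENSMUSG00000020534, chromosome 11, 60788104 to 60811718, minus strand) was at 2.78, 3.89 and 3.09 FPKM in the Ctrl libraries and 4.24, 4.63 and 4.22 FPKM in cKO hearts. The highest Ctrl heart came close to the lowest cKO heart, and the fitted log2 fold change was 0.34 (SE 0.11, 95% interval 0.09 to 0.60). This call was lost when any of Ctrl replicates 1 and 3 and cKO replicates 1, 2 and 3 was left out (0.26 to 0.36), and held without Ctrl replicate 2 (0.45). Shmt1 also shares 184 bases with Smcr8 on the opposite strand, at 3.24 FPKM in Ctrl and 3.99 FPKM in cKO hearts.

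**Figure D2:**
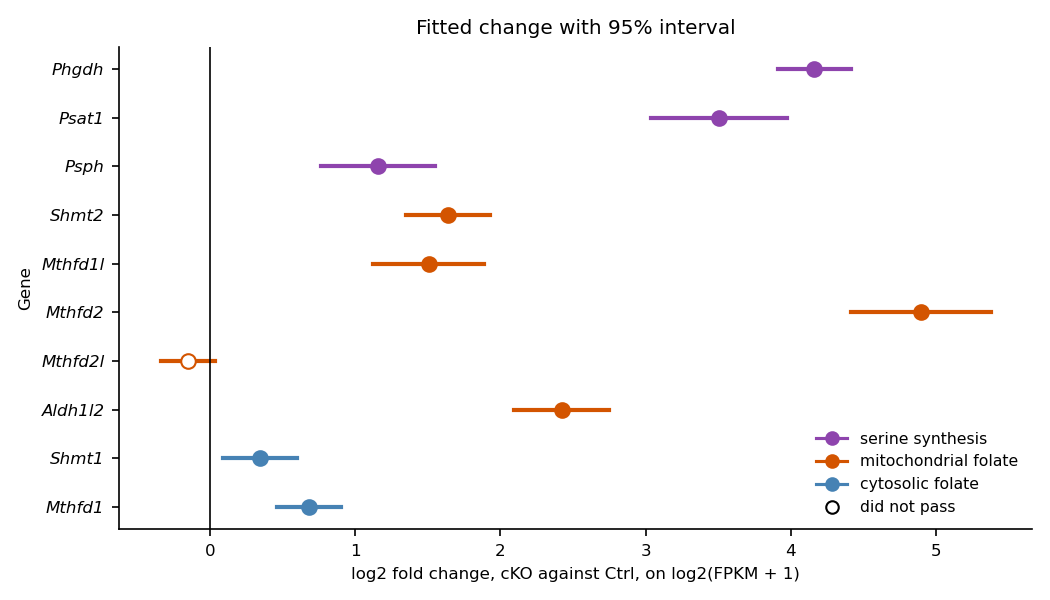
Fitted log2 fold change of cKO against Ctrl for each enzyme on the log2(FPKM + 1) scale, with 95% intervals as bars. Mthfd2 lies furthest right at 4.90, the open point marks Mthfd2l, at -0.15, as not called, and the cytosolic genes lie below 1.

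The order of levels, which FPKM makes comparable per length, was rearranged. In Ctrl hearts Shmt2 was highest, followed by Mthfd1, and each stood above the next gene in all 3 hearts. Below them Shmt1, Mthfd2, Psat1, Mthfd2l, Aldh1l2, Phgdh, Psph and Mthfd1l followed, and neighbours in that order overlapped. In cKO hearts Mthfd2 came first, above Shmt2, and these were followed by Phgdh and Psat1, which overlapped. Mthfd1 and Aldh1l2 stood next without overlap, then Shmt1, Mthfd1l and Psph, which overlapped, and Mthfd2l was last in all 3 hearts.

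Summed per heart, the 3 serine synthesis genes reached 3.62, 2.98 and 2.48 FPKM in Ctrl and 70.1, 51.4 and 60.9 FPKM in cKO hearts. The 5 mitochondrial genes summed to 21.1, 19.7 and 20.1 FPKM in Ctrl and to 177, 148 and 153 FPKM in cKO hearts. The 2 cytosolic genes summed to 8.73, 10.5 and 9.29 FPKM against 15.0, 16.4 and 13.7 FPKM. The mitochondrial genes accordingly made up 65.2 to 70.7% of the transcript level of the 7 folate genes in Ctrl hearts and 90.0 to 92.2% in cKO hearts.

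Ratios of FPKM within a heart do not depend on how the libraries were scaled. Shmt2 exceeded Shmt1 5.29-, 4.04- and 5.29-fold in Ctrl and 14.3-, 9.68- and 11.2-fold in cKO hearts. Mthfd2 exceeded Mthfd2l 3.71-, 2.49- and 1.71-fold in Ctrl and 176-, 122- and 129-fold in cKO hearts, so that Mthfd2 went from 63.1 to 78.8% of the pair to 99.2 to 99.4%. Aldh1l2 and its cytosolic counterpart Aldh1l1 were at similar levels in Ctrl hearts, with ratios of 1.37, 0.765 and 0.728, and stood 23.5-, 24.1- and 26.9-fold apart in cKO hearts. Aldh1l1 itself fell by 0.46 on the log2 scale (limma adjusted p = 0.00607), at 0.788 to 0.915 FPKM in Ctrl and 0.327 to 0.389 FPKM in cKO hearts. These cKO values were under the filter of 0.5 FPKM, so Aldh1l1 was tested only through its Ctrl level. Mthfd1l remained less abundant than Mthfd1 in every heart, at 0.149, 0.0623 and 0.134 of its level in Ctrl and 0.453, 0.275 and 0.371 in cKO hearts. On log2(FPKM + 1), the 4 ratios were higher in cKO hearts by 1.29, 5.05, 2.88 and 0.83, in the same order. These log2 values depend on the constant added: with 0.1 in place of 1 they were 1.27, 5.70, 4.39 and 1.58.

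**Figure D3:**
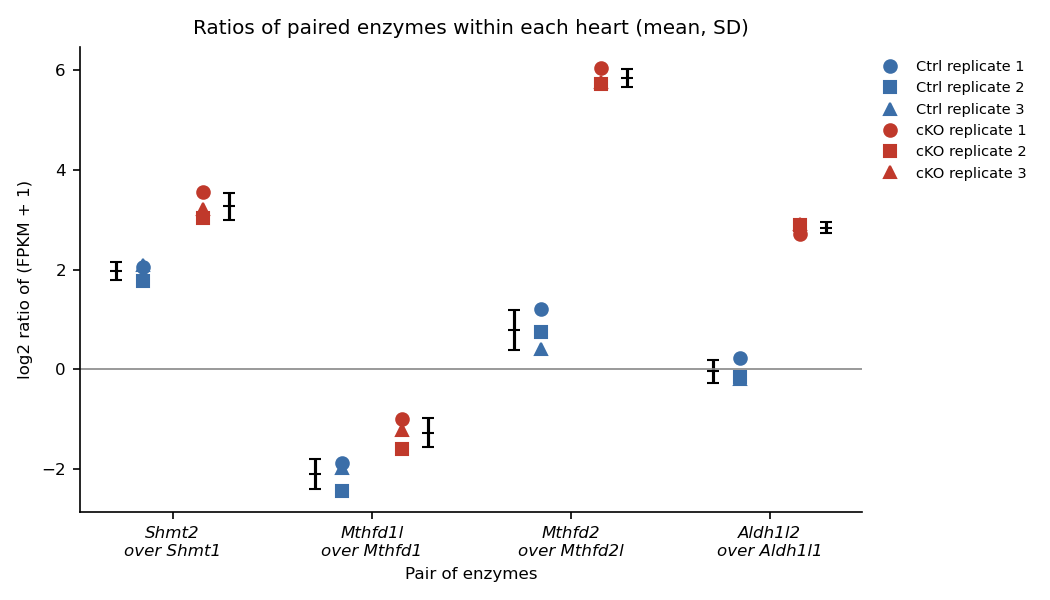
Log2 ratio of (FPKM + 1) of each mitochondrial enzyme over its counterpart within each heart, with group mean and SD beside the points. The 3 cKO hearts lie above the 3 Ctrl hearts for all 4 pairs, most for Mthfd2 over Mthfd2l.

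Among the 3 cKO hearts, 6 of the enzymes had the same order. Phgdh, Psat1, Psph, Shmt2, Mthfd1l and Mthfd2 were each highest in cKO replicate 1 and lowest in cKO replicate 2, whereas Mthfd2l, Aldh1l2, Shmt1 and Mthfd1 were highest in cKO replicate 2. The summed cardiomyocyte markers ran the other way from the first 6 genes, at 8369, 15007 and 10390 FPKM in cKO replicates 1 to 3. With 3 hearts this order is a description, and the part of cell composition in it was not tested.

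The windows of 250 bases before the RefSeq start site (build GRCm38.p6) were read for the genes of the set, and 9 of the 10 had an entry, Psat1 with 2 start sites and so 10 windows in all. None of the 9 held the C/EBP-ATF composite core TGATGNAAN, the cyclic AMP response element TGACGTCA or the E-box CACGTG on either strand, whether or not the 50 bases after the start were included. With those bases included, the motifs occurred in 3.95%, 1.79% and 7.15% of all 32851 promoter windows. A CCAAT box (CCAAT, either strand), which was chosen after the sequences were read, occurred in 6 of the 10 windows (Phgdh, Psat1, Psph, Mthfd2, Shmt1 and Mthfd1) and in 33.8% of all windows before the start. Letters in a window are no proof of a binding site. Only exact matches were counted, so their absence says nothing about a site with differing letters in the window or a factor that binds elsewhere in the gene. The 3 genes with the largest changes and Mthfd2l, the isozyme of Mthfd2 that was not higher, are printed from 5′ to 3′ on the strand of the gene, with CCAAT or its complement ATTGG in capitals.
Phgdh (chr3:98339970-98340219, minus strand): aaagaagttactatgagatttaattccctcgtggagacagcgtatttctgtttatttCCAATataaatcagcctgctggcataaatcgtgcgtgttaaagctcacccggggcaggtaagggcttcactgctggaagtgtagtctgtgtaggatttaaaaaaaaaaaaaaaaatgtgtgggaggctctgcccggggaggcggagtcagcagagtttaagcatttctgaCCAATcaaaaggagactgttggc
Psat1 (chr19:15925060-15925309, minus strand): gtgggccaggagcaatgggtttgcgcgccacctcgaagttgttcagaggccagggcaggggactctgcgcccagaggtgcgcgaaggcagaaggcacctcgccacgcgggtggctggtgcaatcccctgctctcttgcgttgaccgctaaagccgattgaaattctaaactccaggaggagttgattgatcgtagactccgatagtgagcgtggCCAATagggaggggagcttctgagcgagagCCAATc
Mthfd2 (chr6:83317605-83317854, minus strand): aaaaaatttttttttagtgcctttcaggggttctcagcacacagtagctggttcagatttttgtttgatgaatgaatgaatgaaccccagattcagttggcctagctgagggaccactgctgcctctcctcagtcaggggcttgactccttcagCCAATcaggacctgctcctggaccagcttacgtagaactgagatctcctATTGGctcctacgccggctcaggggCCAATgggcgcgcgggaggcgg
Mthfd2l (chr5:90930946-90931195, plus strand): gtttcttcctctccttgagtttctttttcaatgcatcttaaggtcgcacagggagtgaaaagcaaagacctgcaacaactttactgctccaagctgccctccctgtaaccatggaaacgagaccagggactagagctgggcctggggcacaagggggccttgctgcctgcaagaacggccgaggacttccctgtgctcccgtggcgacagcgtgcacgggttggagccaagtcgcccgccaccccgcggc
The window of Mthfd2 held 3 CCAAT boxes, those printed for Phgdh and Psat1 held 2 each, and that of Mthfd2l held none, as did the other window of Psat1.

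Of the 20 nearest tested protein-coding neighbours of the enzymes on the chromosome, 4 were called higher and 6 lower (16.3% and 17.0% of all genes), none by 2-fold or more on the fitted scale, and their median log2 fold change was -0.06 (range -0.85 to 0.70).

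Around these enzymes, 67 genes of serine, glycine and folate metabolism and of the ATF4 response were followed in 8 lists drawn up with earlier results of these data known. Of these, 53 were tested, 21 were higher and 4 lower, beside 16.3% and 17.0% of all genes, with a median log2 fold change of 0.21 against -0.02 for all genes. Without Ctrl replicate 1 and cKO replicate 3, the hearts with the most atrial marker RNA, 13 genes were called in place of 25. Atf4, Trib3, Sesn2, Slc1a4, Slc38a2, Sardh and Mto1 were among the calls lost. That fit had fewer hearts, and calls over all genes also went from 4315 to 2014. The part of atrial tissue in the lost calls was not tested. Unlike the enzymes themselves, these genes are given with their adjusted p from the fit over all genes. As the lists were not chosen independently of these data, their counts and calls are a description, from which nothing is concluded.

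Of 5 tested serine and glycine transporters, 4 rose and none fell, beside 16.3% and 17.0% of all genes. Slc6a9, a glycine transporter, had a log2 fold change of 1.60 (limma adjusted p = 0.000447). Slc1a4, a carrier of serine and alanine, rose by 1.50 (adjusted p = 0.0131). Slc38a1 (1.47, adjusted p = 0.000447) and Slc38a2 (1.05, adjusted p = 0.0117), both sodium-coupled carriers of neutral amino acids, rose too. Without cKO replicate 2 the changes were 1.21 for Slc1a4 and 0.80 for Slc38a2. Slc1a4 was at 0.294, 0.661 and 0.432 FPKM in the Ctrl libraries and 1.43, 5.19 and 3.66 FPKM in cKO hearts. Its Ctrl mean of 0.462 FPKM was under the filter of 0.5 FPKM, so it was tested only through its cKO level. Its call is therefore a description. Of 6 genes around 3-phosphoglycerate, 3 rose and 1 fell, beside the same shares of all genes. Pgam1, the phosphoglycerate mutase of most tissues, rose by 1.68 (adjusted p = 0.00111), from 30.4 to 35.7 FPKM in Ctrl to 94.2 to 138 FPKM in cKO hearts. The other Pgam gene of the list, Pgam2, was more abundant, with means of 670 FPKM in Ctrl and 540 FPKM in cKO hearts. Pgam2 was not called (-0.31, adjusted p = 0.170). Eno3, the muscle enolase, fell by 1.27 on the log2 scale (adjusted p = 0.00167), with means of 767 FPKM in Ctrl and 321 FPKM in cKO hearts. The other enolase gene of the list, Eno1, rose by 0.70 (adjusted p = 0.00120), with means of 31.0 FPKM in Ctrl and 51.1 FPKM in cKO hearts. Eno1 was named after its values were seen.

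Of 10 tested genes of folate handling outside the set, 4 rose and 1 fell, beside 16.3% and 17.0% of all genes. The gene that fell was Aldh1l1, to 0.408 of its Ctrl mean. Atic, which adds a formyl unit in the last steps of purine synthesis, rose by 0.96 (limma adjusted p = 0.000941), from 3.48 to 4.17 FPKM in Ctrl to 8.09 to 9.03 FPKM in cKO hearts. Tyms, thymidylate synthase, was too low to test, at 0.155 to 0.528 FPKM. None of the 5 carriers of the mitochondrial inner membrane passed, with log2 fold changes from -0.31 to 0.22, among them the folate carrier Slc25a32 (-0.19, adjusted p = 0.106) and the serine carrier Sfxn1 (0.22, adjusted p = 0.119), both named after their values were seen.

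Lists with few called genes, whose shares lay near the 33.3% of all genes, were those of serine use, glycine cleavage and mitochondrial tRNA. Of 8 tested serine-using genes 2 rose and 1 fell, and serine racemase, Srr, had the largest fitted change (0.79, limma adjusted p = 0.000840). Of 4 tested genes of glycine cleavage and choline breakdown 1 rose, Sardh (0.44, adjusted p = 0.0116), and the glycine decarboxylase Gldc was too low to test at 0.183 to 0.498 FPKM. Of 4 tested genes that act on mitochondrial tRNA, including the formyltransferase of the initiator tRNA, 1 fell, Mto1 (-0.26, adjusted p = 0.0448). The call for Mto1 was lost without any 1 of the 6 hearts, at -0.30 to -0.22, and with all 6 hearts when no filter was used, under both other scalings (-0.24 and -0.19) and with a replicate block (-0.26).

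**Figure D4:**
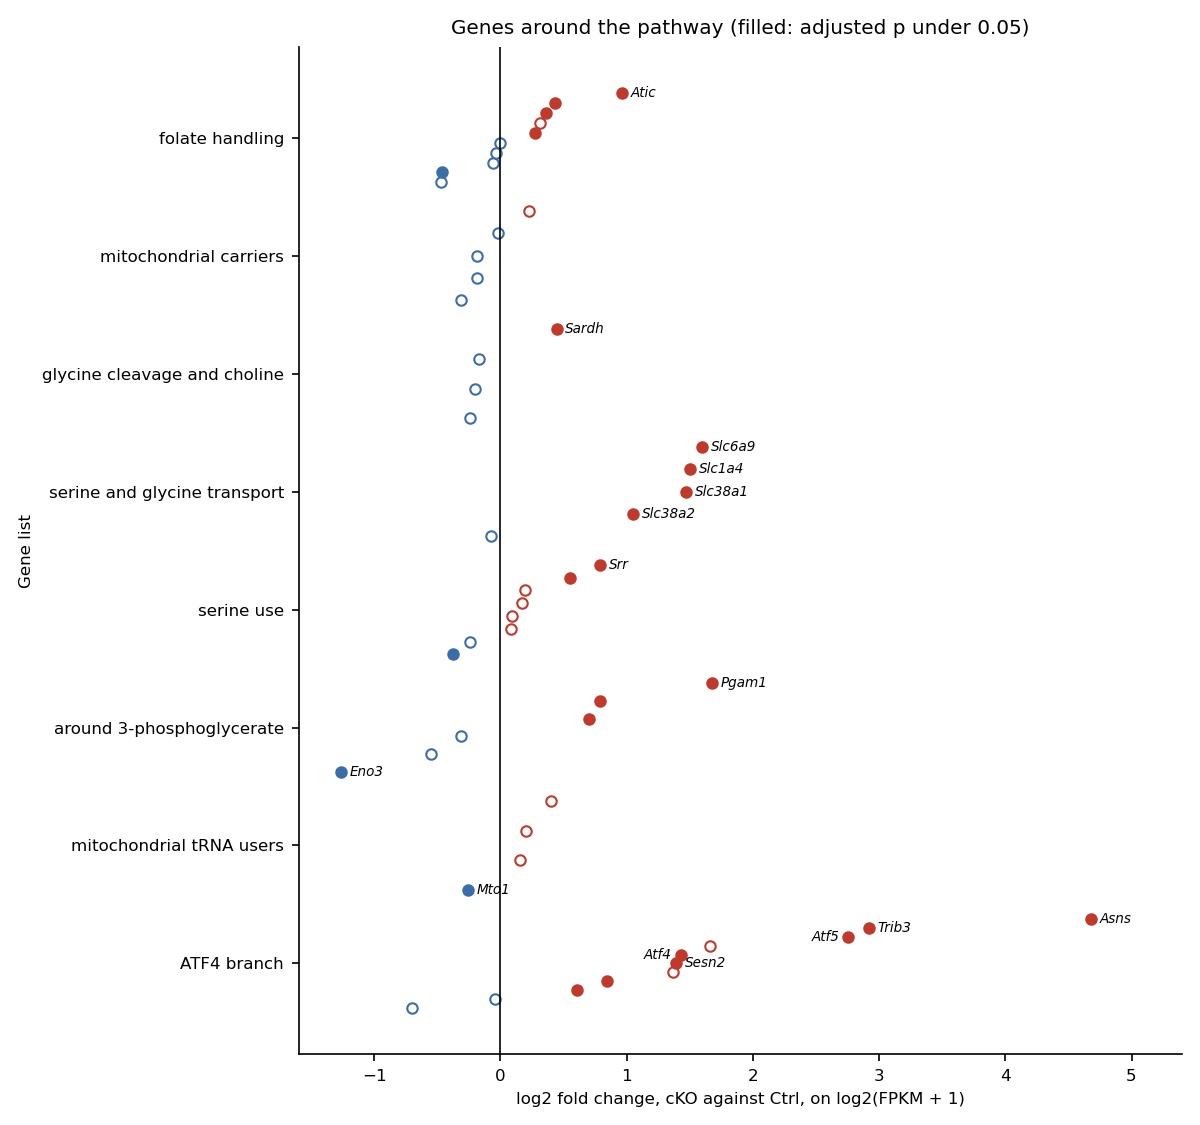
Log2 fold change of the 53 tested genes of the 8 lists, 1 point per gene, filled where the adjusted p was under 0.05, with labels on the genes named by a fixed rule. Asns lies furthest right at 4.68, and no point of the mitochondrial carrier list is filled.

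Of 11 genes of the ATF4 branch of the stress response, 7 rose and none fell, beside 16.3% and 17.0% of all genes. The 4 not called were Ddit3 (1.66, limma adjusted p = 0.0699), Chac1 (1.37, adjusted p = 0.141), Cebpb (-0.04, adjusted p = 0.915) and Ddit4 (-0.70, adjusted p = 0.127). Asns, asparagine synthetase, rose by 4.68 (limma adjusted p = 8.73e-05), Trib3 by 2.92 (adjusted p = 0.0153), Atf5 by 2.76 (adjusted p = 0.000165), Atf4 by 1.43 (adjusted p = 0.00998) and Sesn2 by 1.39 (adjusted p = 0.0282). The call for Sesn2 was lost without any of Ctrl replicates 1, 2 and 3 and cKO replicates 2 and 3 (1.10 to 1.47), and that for Trib3 without Ctrl replicate 2 (2.82). Without cKO replicate 2 the changes were 2.42 for Trib3 and 1.18 for Atf4.

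The heart with the highest serine synthesis and Mthfd2 levels was not the heart with the highest Atf4 RNA. Atf4 RNA was highest in cKO replicate 2, the library without reads from the Y-linked genes. Atf4 was at 66.2, 153 and 125 FPKM in cKO replicates 1 to 3 against 37.9 to 41.8 FPKM in Ctrl hearts. Trib3, a direct ATF4 target, was at 4.75, 36.2 and 28.8 FPKM in the same hearts, and Slc38a2 at 31.8, 61.3 and 40.0 FPKM. In contrast Asns was at 72.4, 63.6 and 61.7 FPKM, highest in replicate 1 as Mthfd2 was. Atf5 was at 231, 175 and 232 FPKM, lowest in replicate 2 as Mthfd2 was. Of the 7 genes of the branch that rose, 5 were lowest in cKO replicate 1, whereas 6 of the 9 called enzymes were highest there. Aldh1l2, also a called enzyme, was lowest there at 7.69 FPKM. With 3 hearts these orders are a description, and the part of ATF4 in them was not tested.

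**Figure D5:**
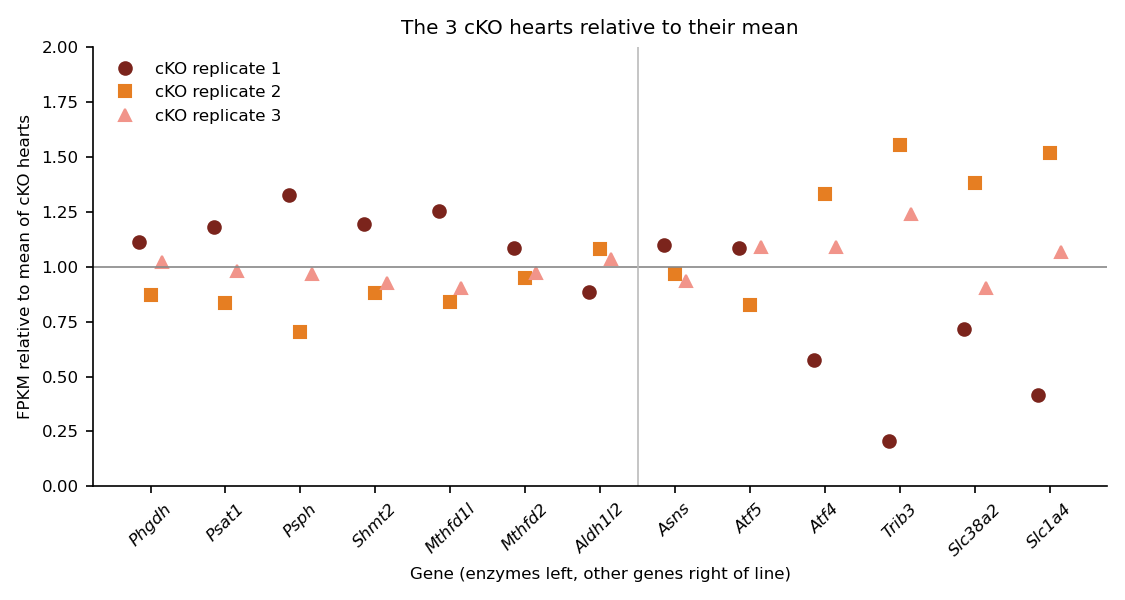
FPKM of 7 enzymes and 6 other genes in the 3 cKO hearts, each divided by the mean of those hearts. Replicate 1 lies above the line for Phgdh, Psat1, Psph, Shmt2, Mthfd1l, Mthfd2, Asns and Atf5 and below it for Aldh1l2, Atf4, Trib3, Slc38a2 and Slc1a4.

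Genes closest in pattern were found by the Euclidean distance over the 6 hearts of log2(FPKM + 1) minus the gene's own Ctrl mean, which describes these hearts and no more. For Mthfd2 the 5 closest of all tested genes were Asns (distance 0.47), Esr1 (1.20), Phgdh (1.44), Gdf15 (2.15) and Psat1 (2.42). MerCreMer itself contains estrogen receptor sequence, so reads of endogenous Esr1 and of the transgene cannot be told apart. For Psat1 they were Slc7a5 (0.49), an amino acid exchanger, Pycr1 (0.70), an enzyme of proline synthesis, Lgals3 (0.85), Cyb5r1 (1.03) and Aldh18a1 (1.12), also an enzyme of proline synthesis. Pycr1 averaged 0.491 FPKM in Ctrl and 12.5 FPKM in cKO hearts, so it passed the filter of 0.5 FPKM only through its cKO level. For Shmt1, whose change was small, the closest were Gm3788 (0.08), Rpp30 (0.10), Dtymk (0.11), Gm26910 (0.12) and Pspc1 (0.13).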

How the data were processed

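RNA sequencing of heart tissue from 3 Ctrl and 3 cKO mice was analysed from 1 deposited table of FPKM values per gene and heart. According to the submitters' processing notes and the methods of the study, the authors aligned paired reads with HISAT2 2.0.5, counted them per gene with featureCounts 1.5.0-p3, divided the counts by gene length and library size to obtain the deposited FPKM, and compared groups with DESeq2 (1.16.1 in the notes, a later version in the methods). The kit kept no strand information, and the strand setting of the counting is not given in the sources used here. The notes name mm9, but the coordinates in the table are those of a GRCm38 annotation (53499 of 54409 shared gene identifiers had the same start and end), so coordinates are on GRCm38.

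FPKM were converted to log2(FPKM + 1), genes with a mean under 0.5 FPKM over the 6 hearts were left out, and 12944 genes were fitted with limma 3.58.1 in R 4.3.3 (moderated test with a mean trend, two-sided, Benjamini-Hochberg adjustment over all genes). A gene was called at an adjusted p under 0.05. The fit was checked on simulated data. Reads were recovered from FPKM and gene length and numbered 15989322 to 24875499 per heart. The library size implied by the FPKM differed from these reads. It was below them in each Ctrl heart (19065651, 20798509 and 24191022 against 19464289, 22772851 and 24875499 reads). In each cKO heart it was above them (16927105, 23349293 and 25155332 against 15989322, 21982256 and 23749804 reads). No fit used the recovered reads as library size, so the part of this scaling was not tested. An exact permutation test of 3 against 3 hearts cannot give a p under 0.1, so none was used. Replicates of a group differed by more than sampling noise and were counted separately, and p-values measure the spread between these hearts. Same-numbered replicates did not deviate together (correlations -0.06, 0.17 and -0.01).

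The members and the lists of other genes were chosen with earlier results of these data known. Named were all members, Mrps5, in each list the called genes with a log2 change of at least 1 in size (otherwise the called gene with the largest change), and the 5 genes closest to Mthfd2, Psat1 and Shmt1. Promoter windows, 250 bases before to 50 after the start, came from RefSeq on GRCm38.p6. Alternatives were another pseudocount, other filters, scalings and models, leaving out hearts and a replicate block. The authors' group comparison was not used.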

Additional observations from a re-analysis of the deposited data

How the results depend on the processing

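The direction of each enzyme's change was the same in every refit that included it (a minimum mean of 1 FPKM left out Mthfd2l), and the number of enzymes called stayed at 8 or 9, with Shmt1 as the call that was lost (without a filter on low values, without each heart except Ctrl replicate 2, and without the hearts with the most atrial marker RNA). Leaving out 1 heart at a time, between 2828 and 3988 genes were called over the whole table against 4315 with all hearts, with 2861 without Ctrl replicate 2 and 2828 without Ctrl replicate 3, and 19 to 25 of the genes in the lists around the pathway against 25. Without Ctrl replicate 1 and cKO replicate 3, an alternative chosen after seeing the data, 2014 genes and 13 of the list genes were called. These fits had fewer hearts. With a pseudocount of 0.1 the ratio of Mthfd1l over Mthfd1 was higher in cKO hearts by 1.58 in place of 0.83 on the log2 scale, that of Mthfd2 over Mthfd2l by 5.70 in place of 5.05, and that of Aldh1l2 over Aldh1l1 by 4.39 in place of 2.88, since a smaller constant shrinks low values less. Leaving out single hearts, the differences in log2 ratio were 1.15 to 1.41 for Shmt2 over Shmt1, 0.66 to 0.99 for Mthfd1l over Mthfd1, 4.86 to 5.26 for Mthfd2 over Mthfd2l and 2.80 to 3.02 for Aldh1l2 over Aldh1l1. A replicate block, for numbers that did not pair the hearts, gave 3856 called genes, 9 of the enzymes and 23 of the list genes, without Mto1. Depth limits the low genes most: Mthfd2l rested on 66 to 135 reads per heart and Phgdh on 36 to 56 reads per Ctrl heart.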
